A study of Chlorocebus aethiops with 8 samples.

Results

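UBA1, the main enzyme that activates ubiquitin, was examined together with the gene of the ubiquitin-like protein NEDD8 and 7 subunit genes of the COP9 signalosome (COPS2, COPS3, COPS4, COPS5, COPS6, COPS7A and COPS8). The group was chosen by the loss of polysome loading of UBA1 and COPS6 after siRNA against RNA helicase A, as measured on these same arrays, so the values of that contrast are given as a description, with no test. The members are all probe sets that the probe annotation assigns to exactly 1 of 10 named symbols. UBA3, the catalytic subunit of the NEDD8-activating enzyme and the tenth name, was not listed with a probe set in the annotation used here and was not analysed here. The other 9 genes, of 14132 with such a probe set in the series, had 19 probe sets: 1 each for UBA1, NEDD8, COPS2 and COPS7A, 2 each for COPS4, COPS5 and COPS6, 4 for COPS3 and 5 for COPS8.

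RNA came from COS cells, a kidney-derived line of the African green monkey transformed with the SV40 large T antigen, and was read on 8 Affymetrix arrays whose probes were designed for the rhesus macaque. Cells on 7 plates of 100 mm received siRNAs directed at nucleotides 2701 to 2721 and 2784 to 2803 of the coding region of human RHA (RNA helicase A, the product of DHX9), or scrambled siRNAs, at 0.5 nM. They were held 4 h in serum-free medium and 24 h with 10% serum, split, transfected a second time and grown for 24 h. Cytoplasmic RNA and RNA of the polysomes, the strings of ribosomes on translated messages, were measured under each siRNA, which gave 4 groups of 2 arrays; all 4 groups thus shared the cell line and both rounds of transfection, and the labels do not name separate cultures for the arrays of a group, so a p-value here covers the spread among arrays, which may be technical.

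Ubiquitin is activated by UBA1, passed to a conjugating enzyme and attached to substrates with the help of ubiquitin ligases. The largest ligase family is built on cullins, which work when NEDD8 is attached to them. The COP9 signalosome takes NEDD8 off again: COPS5 is its metalloprotease, COPS6 is the partner of COPS5 in the catalytic dimer, and COPS2, COPS3, COPS4, COPS7A and COPS8 are scaffold subunits. RHA is a helicase known to promote translation of some messages with structured 5′ ends.

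The values are probe set intensities on a linear scale, and a level is given as an intensity on each array or as the mean of its log2 over a group. Equal amounts of RNA were labelled and the array medians were alike (19.3 to 20.8), so polysome loading here is the level in polysomal RNA relative to cytoplasmic RNA per equal RNA, and a lower number of cells with a message cannot be told apart from less RNA per cell. Arrays labelled replicate 1 are called set 1 and those labelled replicate 2 set 2. The sets stood apart: 13535 of the 26383 probe sets tested (51.3%), those in the brighter 50% with a mean log2 of at least 4.32, differed between sets in limma with adjusted p under 0.05, and so did 7 of the 19 members. All 19 were bright enough to be tested. Values are therefore given within each set beside the mean of both. Set 1 cytoplasm under control siRNA had the lowest median correlation with the arrays of its own set, 0.949 against 0.967 to 0.980 for the other arrays, and was the lowest of the 8 arrays for 8 of 19 members, against 23.7% of all probe sets tested. The signal from the 3′ ends of 3 control transcripts relative to their 5′ ends, a measure of RNA integrity and labelling, differed between RHA and control siRNA by -1.07 (log2) in cytoplasm and 1.17 in polysomes of set 1, and by -0.27 and -0.35 in set 2. Of 12 kidney tubule markers 6 were in the brighter 50%, among them PAX8, AQP1 and EPCAM, while PAX2, LRP2, CUBN, UMOD, SLC12A1 and CDH1 were below it. In the brighter 50% were also 6 of the 7 fibroblast markers with a probe set, VIM and FN1 among them, 3 of 5 leukocyte markers (CD68, CD14 and LYZ, but not PTPRC or ITGAM) and 1 of 2 hepatocyte markers (SERPINA1, but not APOA1); their part in the results was not tested.

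DHX9, the gene targeted by the siRNAs, was lower with RHA siRNA in both fractions of both sets in its brightest probe set. The other 3 probe sets of DHX9 read 9.87 to 38.8 and were too dim to be tested. None of them was lower with RHA siRNA in both fractions of both sets. In polysomes of set 2, 1 of them was at 29.4 under control siRNA and 31.3 under RHA siRNA. The others read 14.5 and 26.7 in control cytoplasm of set 2, against 14.9 and 27.2 under RHA siRNA. In the brightest one, intensity was 244 and 342 (sets 1 and 2) in cytoplasm under control siRNA, against 130.1 and 254 under RHA siRNA. In polysomes the 2 control arrays read 359 and 477 and the 2 RHA arrays 97.2 and 269, so the siRNA groups overlapped in cytoplasm and were separate in polysomes. Its mean log2 difference over both fractions was -1.01 (SE 0.42; limma, adjusted p = 1.00), which was -1.40 in set 1 and -0.63 in set 2.

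UBA1 went in opposite directions in the 2 fractions. In cytoplasm its intensity was 147 and 159 under control siRNA, against 245 and 227 under RHA siRNA (probe set MmugDNA.7386.1.S1_at). In polysomes the control arrays read 352 and 271 and the RHA arrays 124 and 163. The siRNA groups did not overlap in either fraction, with RHA siRNA higher in cytoplasm and lower in polysomes. The log2 group means were 7.26 ± 0.08 (SD, n = 2) and 7.88 ± 0.08 (n = 2) in cytoplasm under control and RHA siRNA, and 8.27 ± 0.27 (n = 2) and 7.15 ± 0.27 (n = 2) in polysomes.

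The UBA1 signal was thus 2.02-fold higher in polysomes than in cytoplasm under control siRNA and 0.603-fold of the cytoplasmic signal under RHA siRNA. The siRNA difference (RHA minus control, log2) was 0.63 in cytoplasm (0.74 in set 1 and 0.52 in set 2) and -1.12 in polysomes (-1.50 and -0.73). The change in polysome loading, which is the polysome difference minus the cytoplasm difference and is the contrast that selected the gene, was -1.74 (SE 0.46), with -2.24 in set 1 and -1.25 in set 2. It was the 86th lowest of the 26383 probe sets tested. A loading change at least 2-fold lower in both sets was seen for 55 of all probe sets tested (0.208%) and, among the 19 members, only for UBA1. Leaving out single arrays gave -1.94 to -1.55. The set 2 value had the same sign as that of set 1 and a smaller size. Both are parts of the contrast that selected UBA1, so their shared sign is a description only. The part of the set 1 array with the lowest correlation and of the integrity measure in these values was not tested.

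NEDD8, the modifier itself, had the same pattern of signs at a smaller size. Its intensity in cytoplasm was 1549 and 1477 under control siRNA, against 2303 and 1833 under RHA siRNA, and the groups did not overlap. In polysomes the control arrays read 1874 and 2044 and the RHA arrays 1378 and 1998, and these groups overlapped. The loading change was -0.68 (SE 0.47), with -1.02 in set 1 and -0.35 in set 2, where nearly all of it came from the cytoplasm (0.31) and little from the polysomes (-0.03). Its polysome to cytoplasm difference was 0.37 with control and -0.31 with RHA siRNA; the latter was -0.74 in set 1 and 0.12 in set 2.

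COPS6, the inactive partner of the signalosome's protease, had the larger signal and the larger loading change in 1 of its 2 probe sets. For this brighter probe set (MmugDNA.13463.1.S1_at) intensity in cytoplasm was 273 and 440.3 under control siRNA, against 728 and 746 under RHA siRNA. In polysomes the control arrays read 869 and 678 and the RHA arrays 409 and 666. The groups did not overlap in either fraction, but in polysomes of set 2 the values of the 2 siRNAs were nearly equal (log2 difference -0.03, against -1.09 in set 1). The cytoplasmic difference was 1.09 (1.41 in set 1 and 0.76 in set 2). Its signal was 2.21-fold higher in polysomes than in cytoplasm under control siRNA and 0.708-fold under RHA siRNA.

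The loading change of this COPS6 probe set, also a value that selected the gene, was -1.64 (SE 0.57), with -2.50 in set 1 and -0.79 in set 2, the 130th lowest of all tested. It was -1.30 without set 1 cytoplasm under control siRNA, and the within-set value of set 2 came almost wholly from the cytoplasm. The second COPS6 probe set (MmuSTS.3699.1.S1_at) had a loading change of -0.34 (-0.36 and -0.33 in the sets) and lay between 62.1 and 88.9 on all arrays. The 2 probe sets thus shared the sign of the loading change but not its size. They correlated at r = 0.36 over the 8 arrays after each set was centred on its own mean. In polysomes the siRNA difference of the second probe set was 0.10 in set 1 and -0.26 in set 2.

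**Figure D1:**
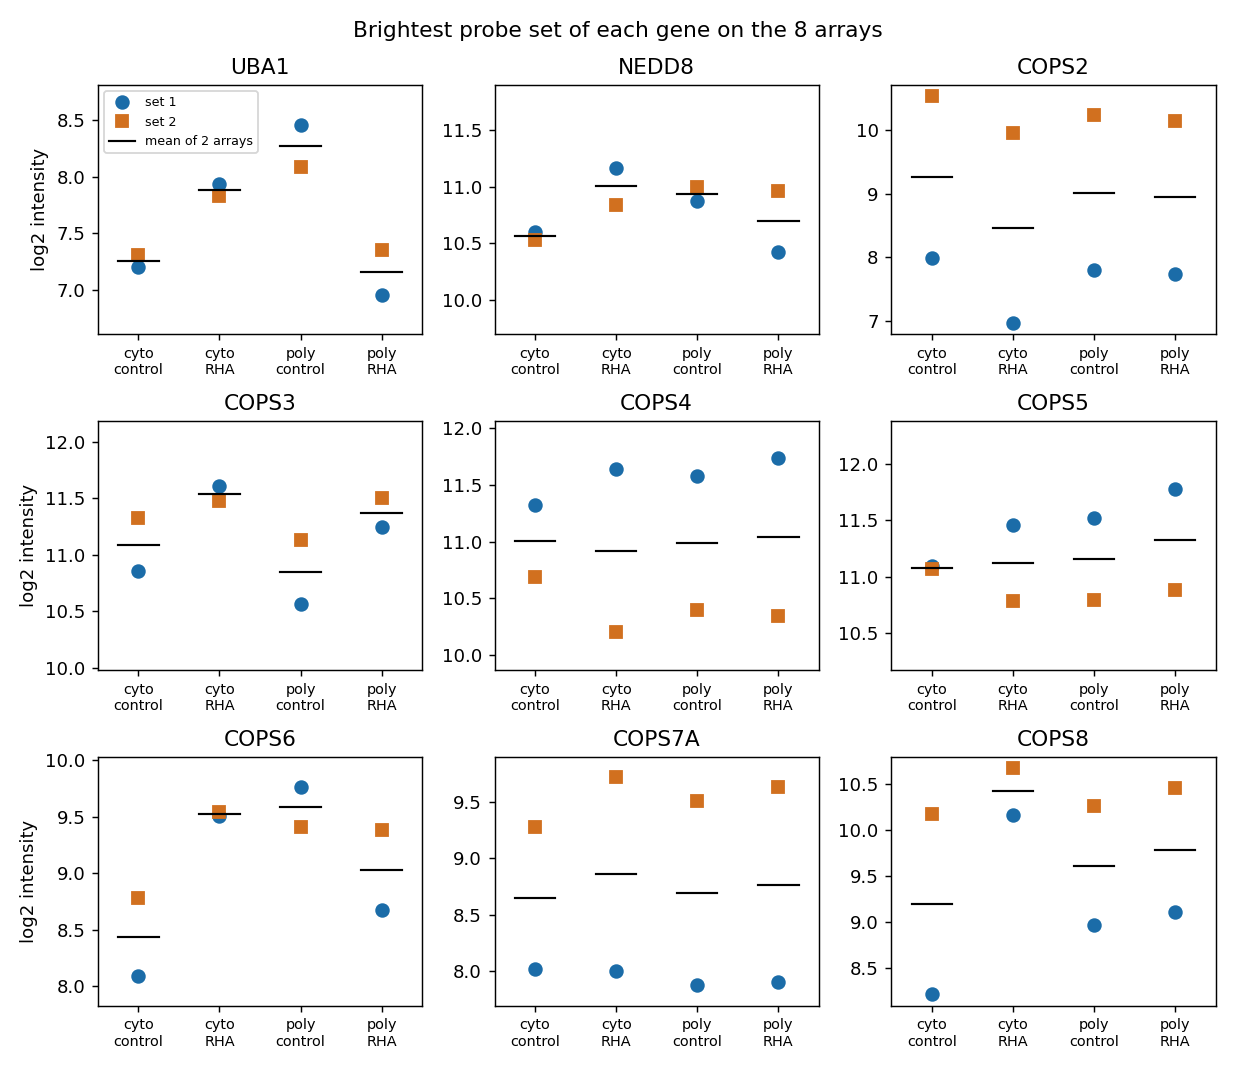
Log2 intensity of the brightest probe set of each of the 9 genes (vertical axis) in the 4 groups (horizontal axis); circles are set 1, squares set 2 and bars the mean of 2 arrays. UBA1 is higher in cytoplasm and lower in polysomes with RHA siRNA (means 7.26, 7.88, 8.27 and 7.15), while COPS2 and COPS7A are separated mainly by set.

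COPS5, the metalloprotease that removes NEDD8 from cullins, did not share the UBA1 pattern in its brighter probe set. Its intensity in cytoplasm was 2186 and 2145 under control siRNA, against 2812 and 1764 under RHA siRNA, and in polysomes 2938 and 1778 against 3497 and 1886. RHA siRNA thus gave the higher cytoplasmic value in set 1 and the lower one in set 2. The loading change was 0.13 (-0.11 in set 1 and 0.37 in set 2), and that of the dimmer probe set was -0.78, with -2.18 and 0.62. In set 1 the dimmer probe set read 141 in control cytoplasm and 251 to 534 on the other arrays of that set.

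The scaffold subunits went different ways. COPS4 had a brighter probe set with a loading change of 0.14 (-0.16 and 0.43 in the sets) and a dimmer one with -0.52 (-1.84 and 0.81). The brighter one read 2561 to 3409 in set 1 and 1174 to 1648 in set 2, so the sets did not overlap. The dimmer COPS4 probe set read 137 in set 1 control cytoplasm and 320.0 to 602 on every other array. COPS2 had intensities of 255 and 1481 in control cytoplasm, 126 and 987 in RHA cytoplasm, 223 and 1202 in control polysomes and 214 and 1132 in RHA polysomes. It was the member farthest apart between sets (mean log2 higher by 2.58 in set 2), and within both sets its lowest value was in cytoplasm under RHA siRNA. Its loading change was 0.73 (0.96 and 0.50), opposite in sign to that of UBA1 in both sets. COPS7A also followed the set, 2.99-fold higher in set 2, with 235 to 260.5 on the 4 arrays of set 1 and 621 to 841 on those of set 2. Its loading change was -0.13 (0.05 and -0.31).

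COPS3 was read by 4 probe sets that did not move together. The brightest (MmuSTS.3695.1.S1_s_at) read 1849.65 and 2564 in control cytoplasm, 3114 and 2848 in RHA cytoplasm, 1512 and 2237 in control polysomes and 2431 and 2894 in RHA polysomes. It was higher with RHA siRNA in both fractions, without overlap in either, and its loading change was 0.08 (-0.07 and 0.22). The loading changes of the other COPS3 probe sets were 0.40 (0.12 and 0.67), 0.87 (1.74 and -0.005) and -1.54 (-3.38 and 0.30), in order of falling brightness. The last of these, the dimmest, had an intensity of 33.8 in set 1 control cytoplasm and 83.5 to 331 elsewhere, so its set 1 value rests on that array. The 6 correlations among the COPS3 probe sets ran from -0.48 to 0.54, so the array gives no single loading change for this gene.

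COPS8, a scaffold subunit, was read by 5 probe sets. The brightest (MmugDNA.17540.1.S1_at) had intensities of 296 and 1156 in control cytoplasm, 1150.2 and 1640.1 in RHA cytoplasm, 498 and 1231 in control polysomes and 552 and 1404 in RHA polysomes. RHA siRNA gave the higher value in both fractions of both sets, by 1.96 and 0.50 (log2) in cytoplasm and by 0.15 and 0.19 in polysomes. Its loading change was -1.06 (-1.81 and -0.31); it was -0.08 without set 1 control cytoplasm and -2.05 without that of set 2. The next 3 COPS8 probe sets had loading changes of -0.94 (-2.06 and 0.18), -0.29 (-0.71 and 0.12) and -0.08 (0.02 and -0.19). These 4 correlated with each other at r = 0.68 to 0.95 over the 8 set-centred arrays. The fifth, at 58.7 to 109.5 on all arrays, correlated with them at -0.56 to -0.01 and had a loading change of 0.43 (1.30 and -0.44). The COPS8 loading change therefore kept its sign across the sets only in the brightest of the 5 probe sets.

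**Figure D2:**
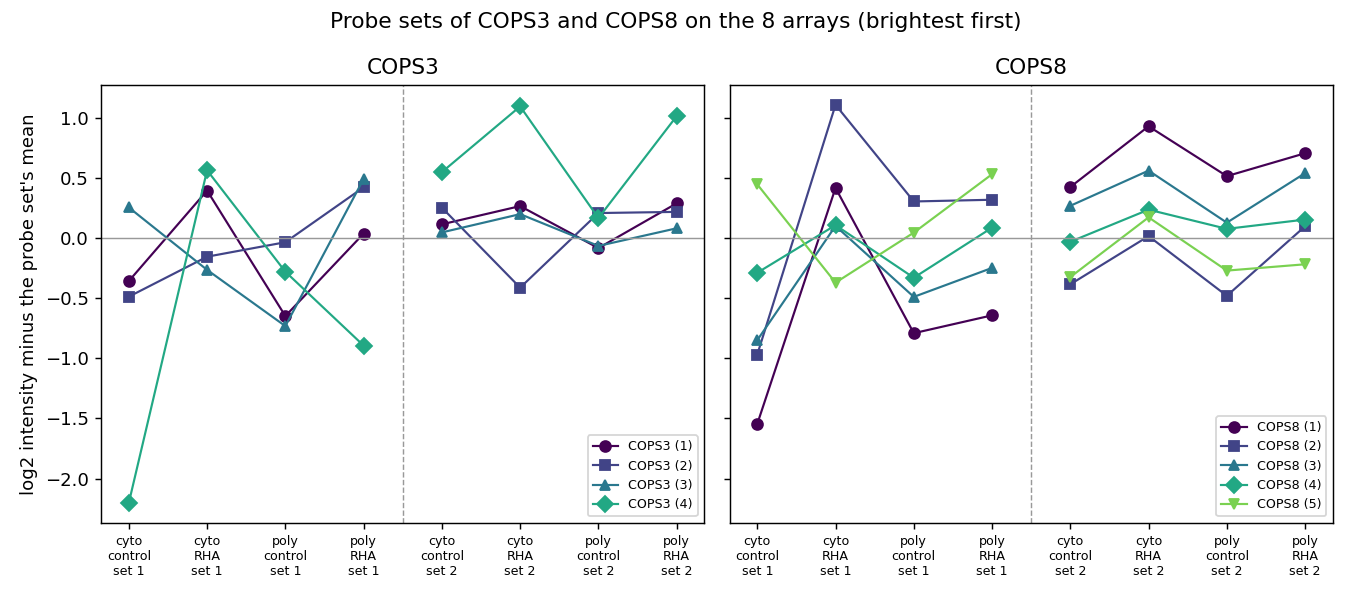
Log2 intensity minus the probe set's own mean (vertical axis) for the 4 COPS3 and 5 COPS8 probe sets on the 8 arrays (horizontal axis, set 1 left and set 2 right of the dashed line). The first 4 COPS8 probe sets run together (r = 0.68 to 0.95), the fifth and the COPS3 probe sets do not.

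Across all 19 members the loading change was below 0 for 12 and above 0 for 7, with a median of -0.29 against -0.02 for all probe sets tested. The median was -0.36 in set 1 (all tested, -0.06) and 0.12 in set 2 (all tested, 0.08). Below 0 in both sets were 5 of 19, the probe sets of UBA1 and NEDD8, both of COPS6 and the brightest of COPS8; of all tested, 24% were. Above 0 in both sets were 2 of 19, COPS2 and the second COPS3 probe set, against 26.1% of all tested. The other 12 had opposite signs in the 2 sets. By the brightest probe set of each gene, 5 of 9 genes were below 0, with a median of -0.13. Over all genes tested, 53.2% were below 0 and the median was -0.03. Without set 1 control cytoplasm, which also leaves the sets unequal in that group, the median of the 19 was 0.04, with 11 above 0 and 8 below. The loading change was called by limma for 0 of 26383 probe sets (0%), with 46 at an unadjusted p under 0.05; with the set as a term it also called 0, with 1048 at an unadjusted p under 0.05. A count of 0 here does not show that loading was the same, since with 2 arrays a group only large differences can be resolved. In the fit without the set as a term, the difference between sets also stays in the spread.

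**Figure D3:**
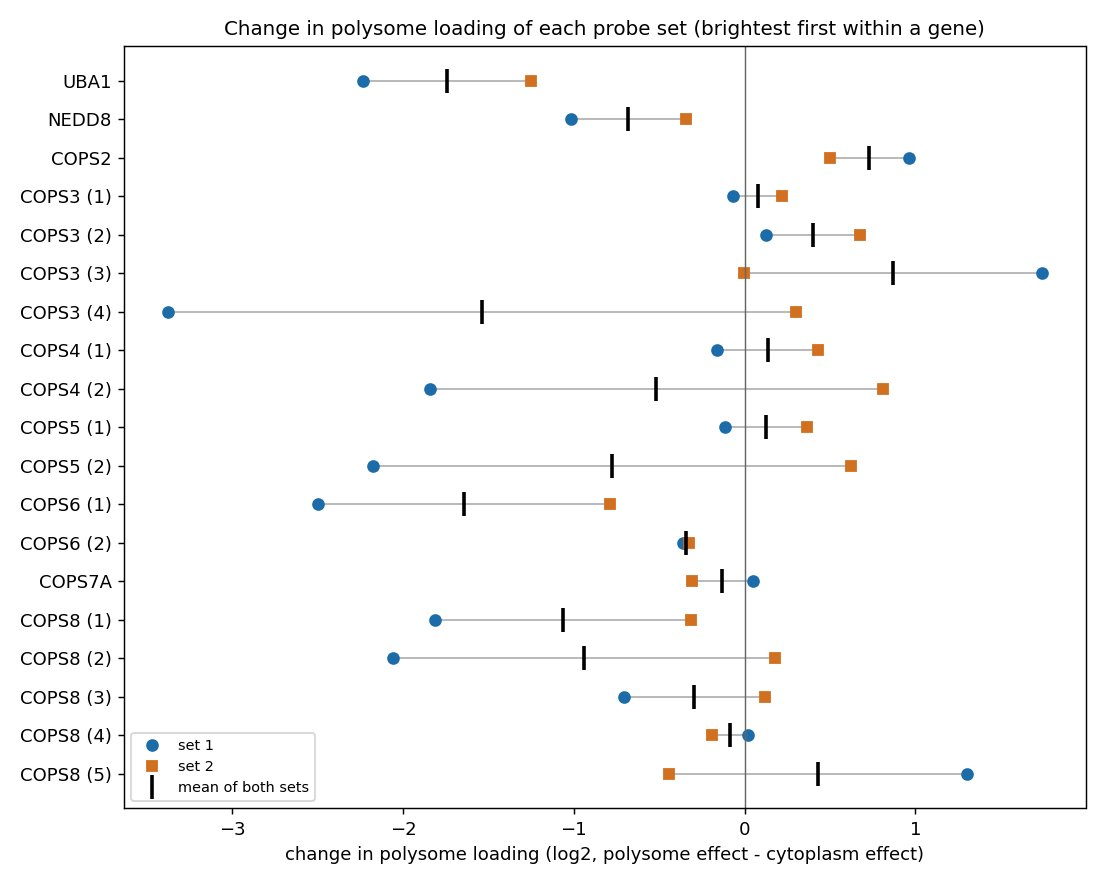
Change in polysome loading (horizontal axis, log2; polysome siRNA difference minus cytoplasm siRNA difference) of each of the 19 probe sets (rows, brightest first within a gene); circles are set 1, squares set 2 and ticks the mean of both. UBA1 (-2.24 and -1.25) and the brighter COPS6 probe set (-2.50 and -0.79) lie below 0 in both sets, while 12 of 19 have opposite signs.

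By fraction, RHA siRNA gave separate, higher groups in cytoplasm for 8 of 19 members (10.5% of all tested) and separate, lower groups for 0 (8.9% of all tested). The 8 were UBA1, NEDD8, both COPS6 probe sets, the brightest and the dimmest of COPS3 and the second and the fourth of COPS8. In polysomes the groups were separate and lower for 2 of 19, UBA1 and the brighter COPS6 (7.79% of all tested), and separate and higher for 5 (7.91% of all tested): the first 3 of COPS3, the dimmer one of COPS4 and the fourth of COPS8. Both fractions are parts of the contrast that selected the genes, so nothing is read from these counts. Limma called 0 of 26383 (0%) in cytoplasm and 0 (0%) in polysomes, with 426 and 137 at an unadjusted p under 0.05; with the set as a term it also called 0 in both, with 3174 and 1334.

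**Figure D4:**
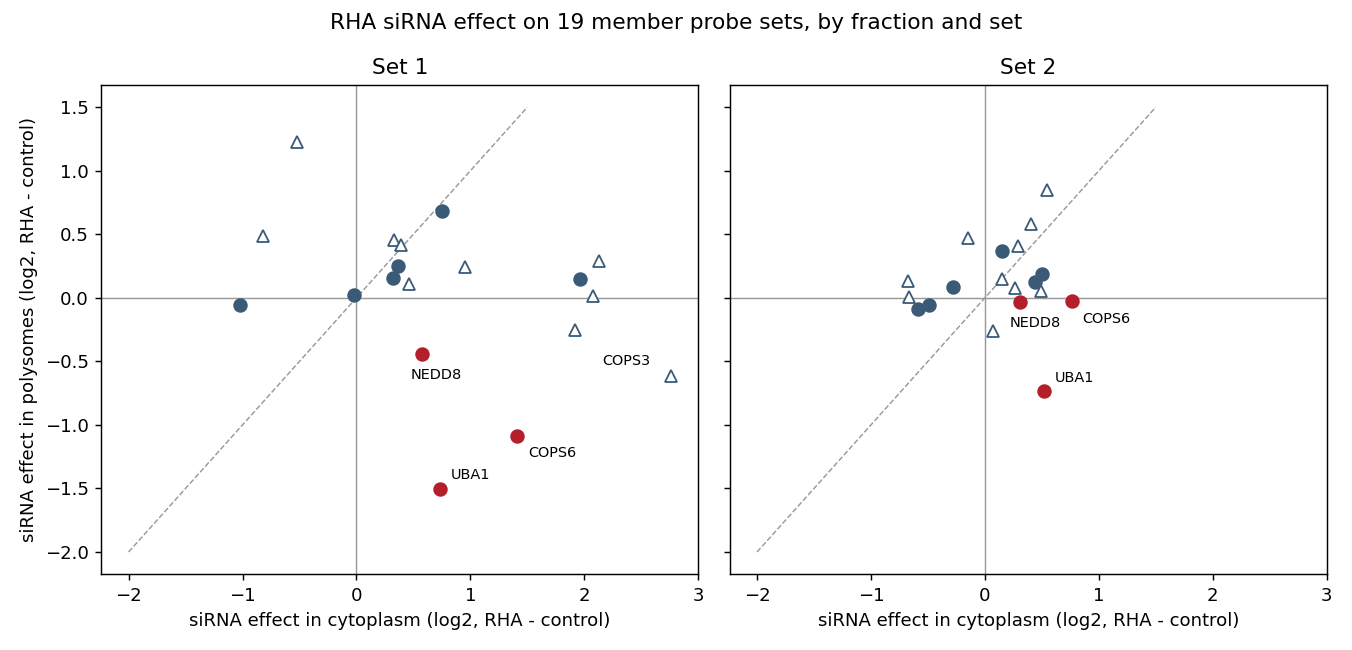
RHA minus control siRNA (log2) in cytoplasm (horizontal axis) and in polysomes (vertical axis) for the 19 probe sets, set 1 left and set 2 right; filled circles are the brightest probe set of a gene, open triangles the others, red marks the brightest probe sets of UBA1, NEDD8 and COPS6, and the dashed line marks equal differences. In both sets the 3 red points lie to the right of 0 and below 0, with UBA1 at 0.74 and -1.50 in set 1 and 0.52 and -0.73 in set 2.

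The siRNA effect averaged over both fractions was tested. It is uncorrelated with the loading contrast only where all arrays have the same spread. Set 1 control cytoplasm enters both: a low value there raises this effect and lowers the loading change. The siRNA effect was above 0 for 16 of 19 members, with a median of 0.25 (0.03 over all tested, of which 54.9% were above 0). It had the same sign in both sets for 13, of which 11 were above 0. COPS3 and COPS8 are counted several times here. By the brightest probe set of each gene, 6 of 9 were above 0, with a median of 0.10. Over all genes tested, 53.8% were above 0 and the median was 0.03. Above 0 in both sets were 5 of the 9 genes and below 0 in both 2, against 28.1% and 25.5% of all genes. Without set 1 control cytoplasm, which also leaves the sets unequal in that group, 13 of 19 were above 0 and the median was 0.12. No member passed: limma called 0 of 26383 probe sets (0%), with 540 at an unadjusted p under 0.05. With the set as a term, which takes the difference between sets out of the spread, 3156 had an unadjusted p under 0.05 and 2 of 26383 passed adjustment (0.00758%), H1-2 and WWTR1, named because the count is so small and not by the rule, and the lowest adjusted p of a member was 0.308, for the brightest COPS8 probe set. The largest values among the brightest probe sets were 0.70 for COPS8 (SE 0.58, or 0.24 with the set as a term; 1.05 in set 1 and 0.35 in set 2; limma, adjusted p = 1.00), 0.49 for COPS3 (SE 0.25; 0.72 and 0.26) and -0.44 for COPS2 (SE 1.04, or 0.18 with the set as a term; -0.54 and -0.34). The COPS8 value was 0.21 without set 1 control cytoplasm and 1.19 without that of set 2. UBA1 was at -0.25 (SE 0.23; -0.38 and -0.11) and COPS6 at 0.27 (SE 0.29; 0.16 and 0.37), since their differences in cytoplasm and polysomes had opposite signs. All 4 RHA arrays lay above all 4 control arrays for 1 of 19 members, the fourth COPS8 probe set (MmugDNA.14158.1.S1_at), at 190.3 to 211 against 143 to 189; of all tested, 1.43% did so. None of the 19 had all RHA arrays below all control arrays, against 1.38% of all tested.

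Polysomal against cytoplasmic RNA, averaged over both siRNAs, was also tested, and set 1 control cytoplasm likewise enters both this contrast and the loading change. The differences of the members were small, from -0.21 for the brightest COPS3 probe set to 0.40 for the second one, with 11 of 19 above 0 and a median of 0.03 (0.07 over all tested, 61.7% above 0). Without set 1 control cytoplasm the direction turned, with 7 above 0, 12 below and a median of -0.06. Leaving that array out also leaves the sets unequal in its group, and the part of the set difference in this turn was not tested. Within the sets, the median of the 19 was 0.14 in set 1 and -0.07 in set 2. Limma called 0 of 26383 (0%), with 59 at an unadjusted p under 0.05 (1061 with the set as a term), and the lowest adjusted p of a member with the set as a term was 0.858. COPS6 was at 0.32 (0.42 and 0.23 in the sets) and UBA1 at 0.14 (0.14 and 0.15). None of the 19 had separate fractions, against 0.36% of all tested with polysomes higher and 0.504% with polysomes lower.

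Other genes of the pathway were counted by the brightest probe set of each gene, over 10106 genes tested, whose median loading change was -0.03 with 46.8% above 0. In every list below, limma called 0 genes in every contrast, with or without the set as a term; the direction counts are a description. The other activating enzymes had 6 of 8 genes tested, with a median of 0.26 and 4 above 0. UBA6, the second enzyme that can activate ubiquitin, was at 0.59 (0.69 and 0.50 in the sets) and thus opposite in sign to UBA1 in both sets. MOCS3, which activates URM1, was at 0.73, but it read only 9.89 to 34.7, with a mean log2 of 4.32, at the limit for testing. UBA7, which activates ISG15, was at -0.57 and SAE1, a subunit of the SUMO-activating enzyme, at -0.29. Of the modifiers 4 of 11 were tested, with a median of -0.25: ISG15 was at -0.40, FAU at -0.27, SUMO2 at -0.22 and URM1 at 0.46. SUMO2 read 3195 to 4517 in set 1 and 173 to 210 in set 2, and its SE was 3.43.

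Conjugating enzymes had 21 of 30 genes tested, with a median of 0.07, 12 above 0 and 9 below. The lowest were UBE2G2, which works in degradation from the endoplasmic reticulum, at -1.40 (-2.46 and -0.34) and UBE2Q1 at -1.12 (-1.41 and -0.82). UBE2G2 was dim, at 27.6 to 175.4 with the highest value in set 1 control polysomes, and its SE was 1.14. The highest were UBE2D2 at 0.54 and UBE2W at 0.48. For UBE2W the mean siRNA effect over both fractions was -1.23 (-1.24 in set 1 and -1.22 in set 2; limma, adjusted p = 1.00). The neddylation machinery had 10 of 16 genes tested, with a median of 0.06 and 6 above 0. NUB1, which brings NEDD8 to the proteasome, was the lowest at -1.43, but with -2.76 in set 1 and -0.10 in set 2, followed by the ligase ARIH1 at -0.33. The highest were UCHL3, a hydrolase that processes NEDD8, at 0.42 and DCUN1D4, which helps to attach NEDD8 to cullins, at 0.22.

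The cullins, the main substrates of NEDD8, were all tested, with a median of 0.08, 5 of 8 above 0. CUL9 was at -0.74 (-0.72 and -0.76) and CUL4A at -0.59 (-0.94 and -0.23), while CUL5 was at 0.61 (0.74 and 0.49) and CUL2 at 0.58 (0.90 and 0.25). Each of these 4, named as the highest and lowest, had 1 sign in both sets. The adaptors and receptors of cullin ligases had 16 of 21 genes tested, with a median of -0.05 and 8 above 0. They ran from SOCS2 at -0.77 and SPOP at -0.58 to FBXW7 at 0.40 and FBXO8 at 0.51. The SOCS2 value was -1.67 in set 1 and 0.12 in set 2, with an intensity of 10.3 in set 1 control cytoplasm and 25.0 to 62.3 elsewhere.

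The remaining COP9 signalosome subunits and proteins of related folds (from the proteasome lid, translation factor eIF3 and PCID2) had 8 of 9 genes tested, with a median of -0.37, 1 above 0 and 7 below. GPS1, which encodes signalosome subunit 1, was the lowest at -1.06 (-1.47 and -0.66), with an siRNA difference of 0.42 in cytoplasm and -0.65 in polysomes. EIF3H, a subunit of eIF3 with the same fold as COPS6, was at -0.55 (-0.99 and -0.11). COPS7B, the second form of subunit 7, was at -0.03 and COPS9 at 0.02. In cytoplasm all 8 of these genes were above 0 with RHA siRNA, against 56.1% of all genes. In 6 of 8 this held in both sets, against 29.3% of all genes, and limma called none of them. Set 1 control cytoplasm enters each of these set 1 differences, and its part was not tested.

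**Figure D5:**
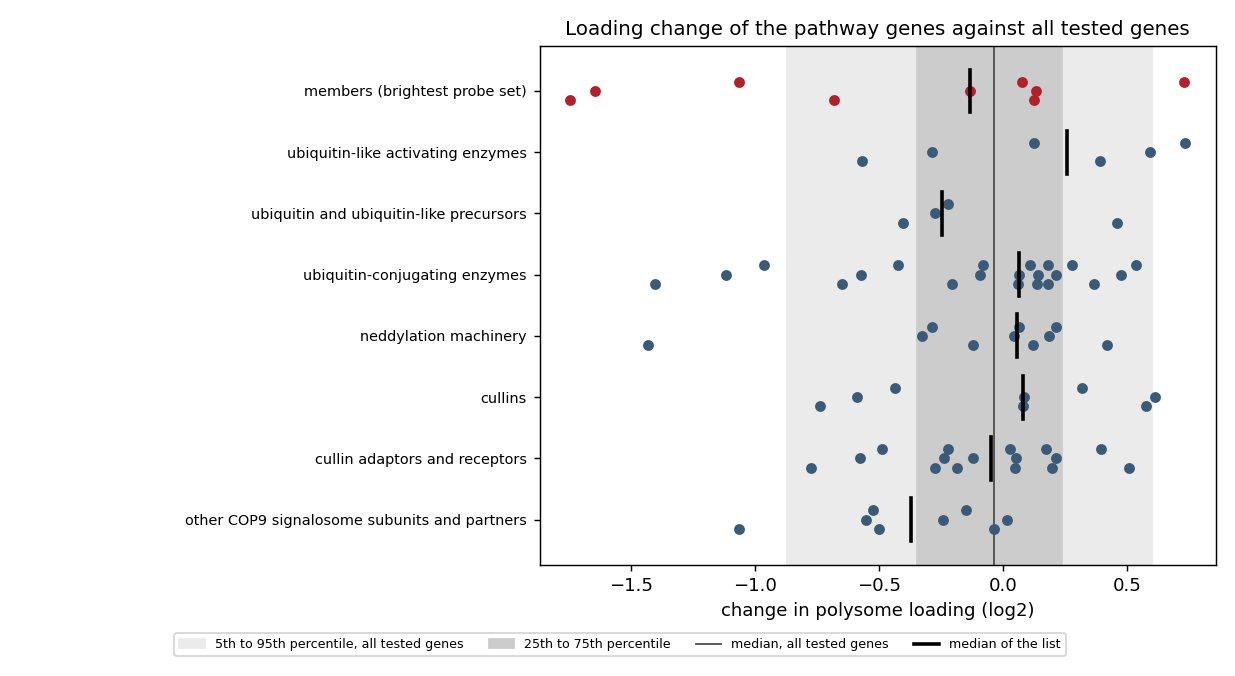
Change in polysome loading (horizontal axis, log2) of the brightest probe set of each gene (points) for the 9 members and 7 lists of pathway genes (rows), with the median of each list (black bar) and the percentiles of all 10106 tested genes (grey bands). UBA1, COPS6, UBE2G2 and NUB1 lie farthest left, and the medians of the lists run from -0.37 to 0.26.

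Among the brightest probe sets of the 9 genes, the 36 correlations over the 8 set-centred arrays had a median of 0.13, from -0.94 for COPS2 with COPS8 to 0.86 for COPS4 with COPS5. UBA1 correlated with COPS6 at 0.83 and with NEDD8 at 0.71, and NEDD8 with COPS6 at 0.75; UBA1 and COPS6 were chosen for a shared pattern, and all points share the same arrays. Over 10097 other genes, the 4 with the profile most like that of UBA1 were WARS1 (r = 0.99), the cytoplasmic tryptophanyl-tRNA synthetase, NOC4L (0.99), YIPF3 (0.98) and ARFGAP2 (0.97), each over 8 arrays. Their loading changes were -0.66, -0.93, -0.63 and -0.60, all smaller in size than that of UBA1. The 4 most like COPS6 were NSMF, AP2M1, a subunit of the clathrin adaptor, GSTP1, a glutathione transferase, and CWC25, each at r = 0.99. Their loading changes were -0.35, -1.25, -1.22 and -1.16. CWC25 was dim, at 11.7 to 29.8 on the 8 arrays.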

How the data were processed

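GCOS and RMA are named, without version or role, in the submitters' processing notes; the background correction and genome build are not given in the sources used here. Each deposited value is a linear intensity of a probe set, treated as normalised by the authors because array medians were alike. Gene symbols are those of GEO's platform annotation, for rhesus probes read with African green monkey RNA. Of 52865 probe sets, 99 were Affymetrix controls. Log2 intensities of the 26383 brighter ones entered limma (version 3.58.1, lmFit with eBayes, under R 4.3.3; two-sided p-values, Benjamini-Hochberg over all tested) as 4 groups over 8 arrays, with no further term; the fit was checked on simulated data. The number of arrays limits the precision. Members and lists were chosen with earlier results of these data known. Named were all members, DHX9, the 2 highest and 2 lowest of each list by loading change, and the 4 most correlated genes of UBA1 and COPS6. Alternatives were a replicate block, no filter, the brightest 25%, quantile normalization, an offset of 16, leaving out each array, and the mean over a gene's probe sets.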

Additional observations from a re-analysis of the deposited data

Results flagged for a closer look

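For 3 genes the siRNA difference was above 0 in cytoplasm and below 0 in polysomes in both sets, so that the polysome difference minus the cytoplasm difference was -1.74 for UBA1, -0.68 for NEDD8 and -1.64 for the brighter COPS6 probe set. This difference between fractions was not tested, since it selected the genes. Opposite signs of this kind in both sets, in either order, were seen for 2386 of 26383 probe sets tested (9.04%). In set 2 the polysome differences of NEDD8 and COPS6 were both -0.03, so their sign there rests on a small difference.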

How the results depend on the processing

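The counts of probe sets called by limma were 0 in all 5 comparisons, except that the replicate block gave 2 for the siRNA effect over both fractions. This holds for every alternative but the mean over a gene's probe sets, for which no such count was made. The main fit did not use the replicate numbers, and the labels do not say whether they mark a shared culture or batch. Same-numbered arrays deviated together (r = 0.680 to 0.868 over 6 pairs of groups), and the within-set values do pair arrays by this number. With the block no member was called. The signs of the loading change of UBA1, COPS6, COPS8 (-2.05 to -0.08 on leaving out single arrays) and NEDD8, and of the siRNA effect of UBA1, COPS3, COPS6 (0.09 to 0.44) and COPS8 (0.21 to 1.19), were kept under every alternative run; the mean of both COPS6 probe sets gave a loading change of -0.99. With the mean of a gene's probe sets, the siRNA effect of COPS4 was 0.23, and the fraction difference was 0.021 for COPS3, -0.027 for COPS5 and 0.000385 for COPS8. With quantile normalization it was -0.0102 for NEDD8 and -0.0032 for COPS4. Leaving out single arrays, which by construction also leaves a group with 1 set, gave siRNA effects of -1.18 to 0.30 for COPS2, -0.38 to 0.34 for COPS4, -0.12 to 0.33 for COPS5, -0.29 to 0.57 for COPS7A and -0.032 to 0.24 for NEDD8. Fraction differences then ran from -0.63 to 0.86 for COPS2, -0.31 to 0.41 for COPS4, -0.081 to 0.36 for COPS5, -0.46 to 0.40 for COPS7A, -0.60 to 0.38 for COPS8, -0.10 to 0.17 for NEDD8 and -0.35 to -0.06 for COPS3. The cause of the other reversals was not tested. With 2 arrays a group, only large differences can be resolved.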
